A study of Mus musculus with 3 samples.

Results

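The Id genes Id1, Id2, Id3 and Id4, the inhibitory Smad genes Smad6 and Smad7, the ligand gene Bmp4, the receptor genes Bmpr1a and Bmpr2 and the antagonist gene Grem1 were followed across 3 culture substrates. These genes were chosen by symbol, and all 10 were found among the 23238 gene symbols of the count tables. RNA-seq was run on C2C12, a mouse myoblast cell line, after 2 days in myogenic induction medium, which contained 2% horse serum and 1% penicillin-streptomycin on every substrate. The cells were grown on a tissue culture plate (TCP), on a hydrogel of 15% w/v methacrylated gelatin (GelMA), or on the same hydrogel with 1% w/v poly(sodium 4-styrenesulfonate), a negatively charged polymer used as a mimic of heparin (GelMA-PSS). TCP and GelMA served as controls, and setting GelMA-PSS against both of them addressed how myoblasts respond to the heparin-like groups. There was 1 library per substrate, so the differences below have no replicate check and carry no p-value. The counts summed to 119799095 on TCP, 87071144 on GelMA and 192171443 on GelMA-PSS.

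Bone morphogenetic proteins (BMPs) bind pairs of type I and type II receptors, which phosphorylate receptor Smads that enter the nucleus with Smad4 and switch on target genes, the Id genes foremost. Id proteins are helix-loop-helix proteins without a DNA-binding region, and by capturing E proteins they keep MyoD and its relatives from pairing with them, so that high Id levels hold myoblasts back from differentiation. The pathway limits itself through the inhibitory Smads and through secreted antagonists such as gremlin 1, and in C2C12 cells added BMP is known to block myotube formation.

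Counts were scaled to counts-per-million (CPM) values with TMM factors, which adjust library totals for a few genes that take up many counts, and ratios were taken as log2(CPM + 1), a scale that understates differences of genes with low counts. Of the 10 genes, 9 reached a CPM of 1 in some library and were tested, as were 13169 genes in all. Id4 was the gene below this limit. A gene was called when it lay 2-fold or more away from both controls in the same direction. Among the 9 genes tested, Id3 was called higher on GelMA-PSS, where 1.37% of all genes tested were called higher, and Bmpr2 was called lower, where 1.16% were called lower. With a threshold of 1.5-fold, Id1 joined Id3 on the higher side, with a background of 8.08%, and Smad7 joined Bmpr2 on the lower side, with a background of 7.18%. Counting each control on its own and either direction, Id3, Bmp4 and Bmpr2 passed 2-fold against TCP (6.85% of all genes), Id3 and Bmpr2 passed it against GelMA (4.1%), and Bmp4 was the 1 gene of the group to pass it between GelMA and TCP (1.0%). The comparisons against TCP and against GelMA share the GelMA-PSS library and are therefore not independent of each other.

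Higher calls made up 54.1% of all calls across the transcriptome. This share was 27.1% with library totals alone and 4.59% with transcripts-per-million (TPM) values, which divide counts by transcript length before scaling and were used here without TMM factors. This change of both length scaling and TMM moved the median log2 ratio of all genes from 0.04 to -0.32 against TCP and from 0.04 to -0.37 against GelMA, and library totals alone moved it to -0.06 and -0.10.

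Id3 rose on GelMA-PSS, and of the 9 tested genes it had the largest ratio against either control. Its CPM was 15.2 on TCP (95% Poisson interval 14.5 to 15.9, from 1855 counts), 26.0 on GelMA (25.0 to 27.1, from 2362 counts) and 62.1 on GelMA-PSS (61.0 to 63.3, from 11257 counts). Such intervals, here and below, cover counting error only. The 3 libraries thus stood well apart for Id3, with TCP lowest and GelMA-PSS highest. The CPM on GelMA-PSS was 4.08-fold that on TCP (interval 3.88 to 4.29) and 2.39-fold that on GelMA (2.29 to 2.50), or 1.96 and 1.23 on the log2(CPM + 1) scale. Among all genes tested, these log2 ratios lay at percentiles 99.7 and 99.4. GelMA itself was 1.71-fold above TCP for Id3 (1.60 to 1.81), a log2 ratio of 0.73 at percentile 98.2, so part of the distance from TCP was already present between the controls. The call of Id3 was lost with TPM and after the length and GC correction, with log2 ratios of 0.78 and 0.85 against GelMA. In RNA from a whole culture, more cells expressing a gene and more RNA per cell cannot be told apart, nor can fewer cells and less RNA per cell.

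Id1 and Id2, the other 2 tested Id genes, lay above both controls without reaching the 2-fold limit. Id1, the classical immediate target of BMP receptors, had a CPM of 10.8 on TCP, 11.8 on GelMA and 21.1 on GelMA-PSS, giving log2 ratios of 0.90 and 0.79 against TCP and GelMA. The controls were close together for Id1, with a log2 ratio of 0.11, and GelMA-PSS stood above both. For Id2, which is also expressed outside BMP signaling, the CPM was 19.7, 23.1 and 33.4 in the same order, with log2 ratios of 0.74 and 0.51. In ranks, Id1 lay at percentiles 94.8 and 95.4 of all genes against TCP and GelMA, and Id2 at 91.7 and 85.8. The CPM summed over the 4 Id genes was 45.8 on TCP, 61.0 on GelMA and 117 on GelMA-PSS. Id1, Id2 and Id3 kept their position above both controls under each of 6 alternatives for the scaling, the pseudocount added to the CPM, and a correction for transcript length, with Id2 against GelMA coming nearest to 0, at a log2 ratio of 0.06 with TPM.

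Id4 was barely detected on any substrate, with 8 counts on TCP, 8 on GelMA and 13 on GelMA-PSS. The CPM values of 0.0657, 0.0880 and 0.0718 had overlapping intervals of 0.0284 to 0.129, 0.0380 to 0.173 and 0.0382 to 0.123, and no difference was detectable at this depth. Exons of Id4 overlap those of A330033J07Rik and Gm49291 on the opposite strand.

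**Figure D1:**
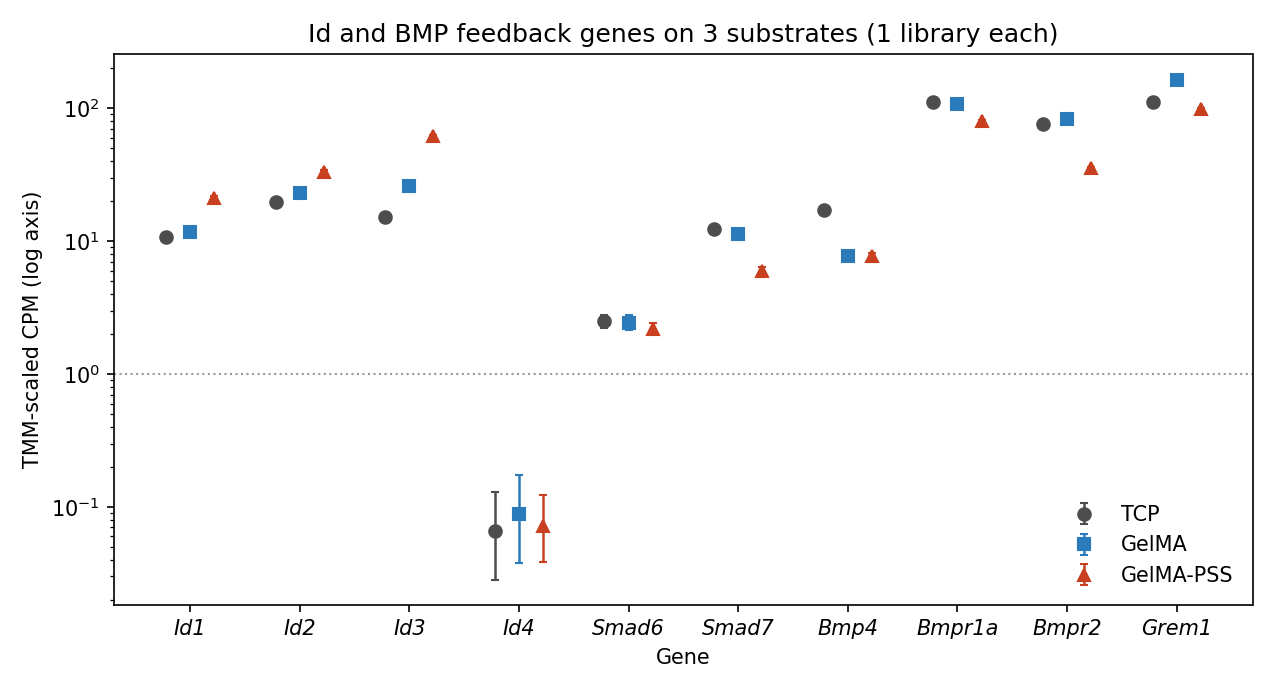
Level of the 10 genes in each library as TMM-scaled CPM on a log axis, with gray circles for TCP, blue squares for GelMA, red triangles for GelMA-PSS and bars for exact 95% Poisson intervals, which are shorter than the symbols for most genes; the dotted line marks a CPM of 1. Id3 runs from 15.2 on TCP to 62.1 on GelMA-PSS, Bmpr2 is lowest on GelMA-PSS at 35.6, and Id4 lies far below the dotted line in every library.

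Bmp4, the ligand gene of the group, separated the plate from both gels. It had a CPM of 17.3 on TCP (16.6 to 18.1), 7.76 on GelMA (7.20 to 8.35) and 7.79 on GelMA-PSS (7.39 to 8.21). GelMA and GelMA-PSS could not be distinguished by counting error, with a ratio of 1.00 (0.917 to 1.10), and both were lower than TCP, at 0.449-fold (0.411 to 0.489) and 0.451-fold (0.421 to 0.482). The log2 ratio of GelMA against TCP, -1.06, lay at percentile 0.2 of all genes tested. The sign of the small log2 ratio against GelMA, 0.01, was kept in 3 of 6 alternatives, while the ratio of either gel against TCP kept its sign in 6 of 6. With a pseudocount of 5 those ratios were -0.805 for GelMA and -0.801 for GelMA-PSS, and neither passed 2-fold any longer. Exons of Bmp4 overlap those of Gm15217 on the opposite strand.

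Bmpr2, the type II receptor that is constitutively active and phosphorylates the type I receptor, fell on GelMA-PSS. Its CPM was 76.1 on TCP (74.5 to 77.6), 82.9 on GelMA (81.0 to 84.8) and 35.6 on GelMA-PSS (34.7 to 36.4). The controls were thus close, and GelMA-PSS lay at 0.467-fold of TCP (0.453 to 0.482) and 0.429-fold of GelMA (0.415 to 0.443). On the log2 scale Bmpr2 was at -1.08 against TCP and -1.20 against GelMA, at percentiles 2.4 and 1.1. The call was narrow against TCP, and with a pseudocount of 5 in place of 1 the log2 ratio there was -0.999 and the call was lost. It was also lost after the correction for transcript length and GC content described further on, which left log2 ratios of -0.48 and -0.33.

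Bmpr1a, a type I receptor for BMP2 and BMP4, had a CPM of 111 on TCP, 107 on GelMA and 80.6 on GelMA-PSS. Its log2 ratios of -0.45 and -0.41 were below both controls but did not reach 2-fold, and the controls differed by -0.04. Against TCP and GelMA the ratios of Bmpr1a were -0.84 and -0.85 with TPM, and -0.27 and -0.16 after the length and GC correction. Exons of Bmpr1a overlap those of Gm17110 on the opposite strand. Whether strand was used in counting is not given in the sources used here, so reads of Id4, Bmp4 and Bmpr1a and of their antisense neighbors cannot be told apart.

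Grem1, which encodes the secreted antagonist gremlin 1, had its highest value on GelMA. The CPM was 112 on TCP (110 to 114), 163 on GelMA (161 to 166) and 98.3 on GelMA-PSS (96.8 to 99.7). GelMA lay 1.46-fold above TCP (1.42 to 1.49), and GelMA-PSS was at 0.875-fold of TCP (0.855 to 0.895) and 0.601-fold of GelMA (0.588 to 0.614). In log2 terms GelMA-PSS differed from GelMA by -0.73 and from TCP by -0.19, so the choice of control set the size of the difference for this gene. With TPM these log2 ratios were -1.182 and -0.595, and the one against GelMA then passed 2-fold.

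The 2 inhibitory Smad genes differed in level and in ratio. Smad7, which competes with receptor Smads at the type I receptor and also acts in TGF-beta signaling, had a CPM of 12.3 on TCP (11.7 to 13.0), 11.4 on GelMA (10.7 to 12.2) and 5.98 on GelMA-PSS (5.63 to 6.35). It was thus lowest on GelMA-PSS, at 0.485-fold of TCP (0.448 to 0.525) and 0.523-fold of GelMA (0.480 to 0.570), with log2 ratios of -0.93 and -0.83 at percentiles 3.9 and 4.3. Smad6, which preferentially inhibits BMP signaling, had a CPM of 2.50, 2.44 and 2.20 on TCP, GelMA and GelMA-PSS. The ratios for Smad6, 0.879 (0.756 to 1.02) and 0.902 (0.763 to 1.07) against TCP and GelMA, were within counting error, and no difference was detectable at this depth. Both genes are themselves known BMP targets, as are the Id genes, and in these libraries Id1, Id2 and Id3 lay above both controls and Smad7 below both.

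Levels of different genes were compared as CPM per kilobase of transcript. On TCP the order was Grem1 (27.1), Bmpr1a (18.6), Id3 (11.9), Id2 (9.99), Id1 (9.35), Bmp4 (8.38), Bmpr2 (5.90), Smad7 (2.88), Smad6 (0.843) and Id4 (0.0171). Only Id2 and Id1 were neighbors with overlapping counting intervals there, at 9.59 to 10.4 and 8.85 to 9.87, and on the gels 0 neighbors overlapped. On GelMA, Grem1 (39.4) was again first, followed by Id3 (20.3) and Bmpr1a (18.0). On GelMA-PSS, Id3 stood first at 48.6, ahead of Grem1 at 23.7, Id1 at 18.2, Id2 at 17.0 and Bmpr1a at 13.5, while Bmpr2 was at 2.76 and Smad7 at 1.40. These levels carry no correction for the trend of the ratios with transcript length that is described next. When the levels on GelMA-PSS were shifted by that correction of the ratio to the controls' mean, a step added after the values were seen, Id3 (38.2) and Grem1 (24.3) were still first and second, but Bmpr1a (15.7) came before Id2 (13.7) and Id1 (13.6), and Bmpr2 (4.61) before Bmp4 (3.25).

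Log2 ratios on GelMA-PSS varied with transcript length across the transcriptome, and the genes of the group differ widely in length. When the genes were sorted by length into 10 groups of equal size, the median log2 ratio of GelMA-PSS against the mean of the 2 controls went from 0.55 in the group of shortest transcripts to -0.56 in the group of longest. Id1, with a transcript of 1160 bases, belonged to the first group, and Id3, with 1278 bases, to the second, whose median was 0.37. Bmpr2, with 12899 bases, belonged to the last group. Against the same mean of controls the log2 ratio was 0.84 for Id1, 1.59 for Id3 and -1.14 for Bmpr2, each further from 0 than the median of its own group.

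After subtraction of 2 local regression (loess) fits, on length and then on GC content, 0 of the 9 genes passed 2-fold against both controls, with backgrounds of 0.452% called higher and 0.544% called lower. Id3 then had log2 ratios of 1.65 against TCP and 0.85 against GelMA, at percentiles 99.6 and 98.8, so it lost the call on the GelMA side and kept a rank near the top. For Bmpr2 the corrected ratios were -0.48 and -0.33, at percentiles 12.1 and 13.7, so its distance from the controls was less than a log2 of 0.5 on either side. Smad7, with 4278 bases, was at -0.74 and -0.59 after the correction and was then further below the controls than Bmpr2. Id1 was at 0.54 and 0.35, and Id2 at 0.47 and 0.18. The corrected ratio of Bmp4 was -1.02 between GelMA and TCP, -1.23 for GelMA-PSS against TCP and -0.21 against GelMA, at percentile 22.8, and Grem1 against GelMA was at -0.68. The cause of the trend with length was not tested.

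**Figure D2:**
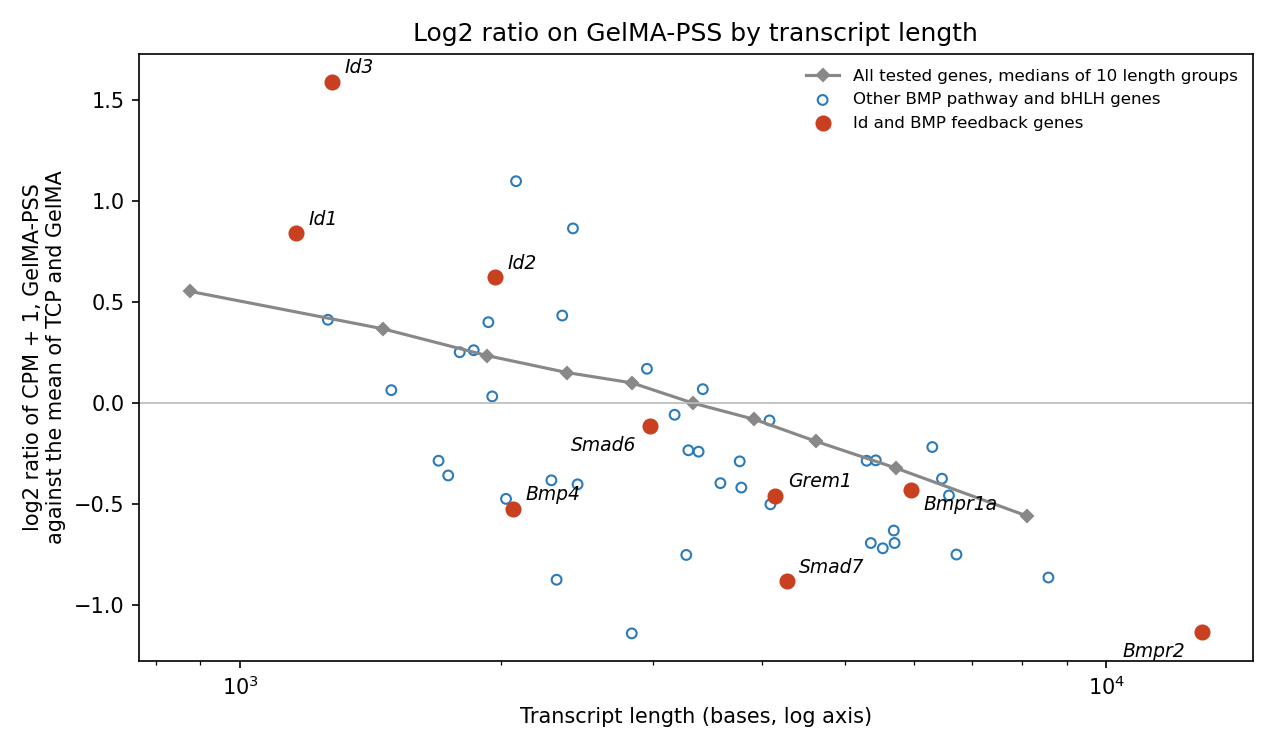
Log2 ratio of CPM + 1 on GelMA-PSS against the mean of TCP and GelMA, plotted against transcript length in bases on a log axis; gray diamonds are medians of all tested genes in 10 groups by length, red points the 9 tested genes of the group and open blue circles the other genes of the BMP pathway and its helix-loop-helix partners. The medians run from 0.55 to -0.56, with Id3 at 1.59 above them, Smad7 at -0.88 and Bmp4 at -0.53 below them, and Bmpr2 at the long end at -1.14.

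With TPM, the distance of each gene from the shifted median of all genes was read instead. Id3 then lay 1.89 above that median against TCP and 1.14 against GelMA, although its own log2 ratio of 0.78 against GelMA no longer passed 2-fold. Bmpr2 lay -1.01 and -1.12 from it and Smad7 -0.82 and -0.73, and both were called lower with TPM. Smad6 lay -0.04 and 0.003 from it, next to the middle of all genes.

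Other genes of the pathway were taken from lists of ligands, receptors and coreceptors, Smads, antagonists, intracellular inhibitors, targets, E proteins and myogenic basic helix-loop-helix (bHLH) factors. Outside the 10 genes, these lists held 59 genes, of which 38 were tested. By the 2-fold rule 0 of them were called higher and 0 lower. At any size, 9 of the 38 were above both controls (23.7%) and 24 below both (63.2%), against 45.3% and 39.3% of all genes tested. Myf6 among the 9 and Bmpr1b among the 24 reached the CPM limit only where they were high. Their places in these counts follow in part from that limit. Their median log2 ratio to the controls' mean was -0.29, or -0.22 after the length and GC correction, where all genes had medians of 0.03 and -0.001. With TPM, which shifts all genes downward, 4 were above both and 31 below both of 36 tested, with a median 0.33 below that of all genes. The median transcript of these genes, 3284 bases, was close to the 3066 bases of all genes.

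Of 13 listed ligands, 2 were tested, Bmp4 and Gdf5. Gdf5, a ligand of joints and tendon, had a CPM of 11.4 on TCP, 7.37 on GelMA and 4.55 on GelMA-PSS. Both ligands were thus highest on the plate, and Gdf5 went on to a lower value with PSS, at a log2 ratio of -0.59 against GelMA, while Bmp4 was at 0.01, or at -0.12 with library totals alone, -0.40 with TPM and -0.21 after the length and GC correction. Among receptors and coreceptors 10 of 11 were tested, with 1 called lower (Bmpr2), where 1.16% of all genes were. At any size, 8 were below both controls (80.0%, against 39.3% of all genes) and 1 above both (10.0%, against 45.3%). Of the 8, Bmpr1b had a CPM of 1.17 on TCP, 1.19 on GelMA and 0.348 on GelMA-PSS. It reached the CPM limit of 1 on the controls alone, so its place below both follows in part from that limit. Their median log2 ratio was -0.45 (-0.34 corrected). The coreceptor above both controls was Eng, within counting error at 1.02-fold of TCP (0.898 to 1.15) and 1.11-fold of GelMA (0.968 to 1.28), and under library totals alone or TPM 0 were above both. The type I receptor gene Acvrl1, untested because its CPM stayed below 1, had 15 counts on TCP, 17 on GelMA and 110 on GelMA-PSS, which was 4.93-fold of TCP (2.86 to 9.11) and 3.25-fold of GelMA (1.94 to 5.77). Of 21 untested genes on all pathway lists outside the 10, it was the 1 whose counting intervals lay above both controls, and the ligand gene Bmp3 was the 1 whose intervals lay below both, with 86, 54 and 56 counts on TCP, GelMA and GelMA-PSS, at 0.438-fold of TCP (0.307 to 0.620) and 0.520-fold of GelMA (0.352 to 0.771). The Smads Smad1, Smad5 and Smad4, which carry the signal to the nucleus, were all below both controls, with log2 ratios of -0.29, -0.46 and -0.24 against the mean of the controls and a list median of -0.29 (-0.22 corrected).

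Among the secreted and pseudoreceptor antagonists, 10 of 15 were tested and 0 were called. Below both controls lay 6 (60.0%, against 39.3% of all genes) and above both 1 (10.0%, against 45.3%). The gene above both was Nbl1, the most abundant of the list, with a CPM of 164 on TCP, 138 on GelMA and 179 on GelMA-PSS. It lay at 1.09-fold of TCP (1.07 to 1.11) and 1.30-fold of GelMA (1.27 to 1.33). With TPM, which shifts all genes downward, 10 lay below and 0 above, and the list median lay -0.31 from that of all genes. Fst, the gene of follistatin, a protein that binds activins more tightly than BMPs, had a CPM of 187 on TCP, 89.0 on GelMA and 58.0 on GelMA-PSS. Chrd, encoding the BMP-binding protein chordin, was at 102, 62.6 and 47.0, and its relative Chrdl1 at 7.90, 2.48 and 2.93. All 3 were highest on TCP, and the log2 ratio of GelMA against TCP was -1.07, -0.70 and -1.36 for Fst, Chrd and Chrdl1. Fst and Chrd, like Gdf5, were lower still on GelMA-PSS, at 0.651-fold (0.633 to 0.670) and 0.751-fold (0.726 to 0.777) of GelMA, and Chrdl1 was at 1.18-fold (1.01 to 1.39). The list median was -0.39 against the mean of the controls and -0.46 after the correction.

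All 7 intracellular inhibitors were tested and all 7 were below both controls (100%, against 39.3% of all genes), with 0 called. After the length and GC correction 5 were below both. The median log2 ratio was -0.38 and the corrected median -0.37, against 0.03 and -0.001 for all genes. After Smad7, the 2 genes furthest from the controls were Skil and Ski, corepressors that bind Smads, with log2 ratios of -0.75 and -0.72 against the mean of the controls and -0.46 and -0.37 after the correction. On the corrected scale Tob1, the gene of an antiproliferative protein that binds Smads, lay further than both, at -0.61. Smad6, at -0.12, and Smad7, at -0.88, were the ends of the range of this list.

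Of 12 listed BMP targets outside the Id genes, 7 were tested and 0 called. Above both controls lay 3 of the 7 (42.9%, against 45.3% of all genes, and 2 with TPM), and below both 4 (57.1%, against 39.3%, and 3 after the correction). The median log2 ratio was -0.12, or 0.004 corrected. Hey1, a bHLH repressor that responds to BMP and Notch, had a CPM of 12.5 on TCP, 15.2 on GelMA and 26.0 on GelMA-PSS, and Atoh8 had 3.09, 2.72 and 4.26. Both were highest on GelMA-PSS, as Id1, Id2 and Id3 were, with log2 ratios of 0.87 and 0.43 against the mean of the controls. Smad7, on the same list, was lowest there.

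E proteins are the partners that Id proteins bind. Tcf3 had a CPM of 98.6 on TCP, 121 on GelMA and 123 on GelMA-PSS, Tcf12 had 132, 146 and 119, and Tcf4 had 117, 102 and 59.5. Tcf4 was the one furthest from the controls, at a log2 ratio of -0.87, or -0.42 after the correction, with a transcript of 8577 bases. The list of 3 had a median of -0.22, or 0.07 corrected, with 0 called. Above both controls lay 1 (33.3%, against 45.3% of all genes) and below both 2 (66.7%, against 39.3%). With library totals alone 0 were above, with TPM 0 were above and 3 below, and after the correction 2 were above and 1 below. Tcf3, the gene above both, was within counting error of GelMA, at 1.02-fold (0.995 to 1.04).

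Of the 4 myogenic bHLH factors, which need E proteins to bind DNA, 3 lay above both controls (75.0%, against 45.3% of all genes). Below both lay 0 (against 39.3%), and 0 were called. With TPM 2 were above and 2 below, and after the length and GC correction 2 were above and 1 below. Myf5, the factor of undifferentiated myoblasts, had a CPM of 13.9 on TCP, 19.5 on GelMA and 36.5 on GelMA-PSS, with log2 ratios of 1.33 against TCP and 0.87 against GelMA. The order of substrates for Myf5 was that of Id3. Myod1 had a CPM of 94.3, 105 and 119, and Myf6 had 0.936, 0.638 and 1.37. Myf6 thus reached the CPM limit of 1 on GelMA-PSS alone. Its place in the count above both controls and in the list median therefore follows in part from that limit. Myog, the most abundant of the list, had 1100, 895 and 1037, between the controls, and its corrected log2 ratios were -0.35 against TCP and -0.11 against GelMA. The list median was 0.34, or 0.03 corrected.

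The 5 genes closest to Id3 in their 2 log2 ratios (GelMA against TCP, GelMA-PSS against GelMA), by Euclidean distance over 3 libraries and among 9258 genes with a mean CPM of 10 or more, were Fam162a, Ly6c1, Igfbp2, Ly6f and Glipr2, at distances of 0.0339, 0.0764, 0.0894, 0.1173 and 0.1294. Since they were chosen for ratios like those of Id3, their place above both controls follows from the choice. The nearest, Fam162a, had a CPM of 78.1 on TCP, 128 on GelMA and 303 on GelMA-PSS, and after the length and GC correction its log2 ratio against GelMA was 0.545. That of Ly6c1 was 0.532 and that of Ly6f 0.701, all 3 below the 0.846 of Id3, whereas Igfbp2 at 1.045 and Glipr2 at 0.955 lay above it, and Igfbp2 was the 1 neighbor to keep its call. Ly6c1 and Ly6f belong to 1 family of similar genes, and reads may have been split among its copies.

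Markers of muscle and of other cell types were examined in the same libraries. All 8 skeletal muscle markers were above the CPM limit, with a summed CPM of 26230 on TCP, 19494 on GelMA and 16575 on GelMA-PSS. Above both controls lay 2 of them (25.0%, against 45.3% of all genes) and below both 3 (37.5%, against 39.3%). Cdh15, 1 of those above both, was within counting error of TCP, at 1.0-fold (0.995 to 1.01). Myh3 was the most abundant on TCP and GelMA and Acta1 on GelMA-PSS, at a CPM of 5060. Myh3, with a CPM of 10182, 6355 and 3037, was the 1 marker called lower, a call that was lost after the length and GC correction (log2 ratio of -0.62 against GelMA). From GelMA to GelMA-PSS the summed CPM fell by less than Myh3 alone did, so that fall of the sum does not describe the other markers. The median log2 ratio of the markers was -0.19 against TCP and 0.13 against GelMA. The direction against GelMA depended on the correction. Corrected ratios there were 0.165 for Des, 0.02 for Myod1 and 0.253 for Cdh15. They were negative for Myog (-0.109), Acta1 (-0.396), Ckm (-0.236) and Tnnt3 (-0.36), as for Myh3. Taken to the controls' mean, the marker median moved from -0.05 to -0.31 with the correction. The part of the markers in the Id values was not tested. BMP is known to turn this line toward osteoblasts. Of 6 osteoblast markers, 3 were above the limit, with a summed CPM of 36.1, 35.2 and 28.3. These were Runx2 (25.2, 29.3 and 20.7 on TCP, GelMA and GelMA-PSS), Bglap (3.26, 1.47 and 2.19) and Bglap2 (7.49, 4.23 and 5.38), while Ibsp had 0 counts in every library, Alpl had 2, 3 and 0 and Sp7 had 12, 15 and 12. In uncorrected CPM the osteoblast list was thus mixed, and 0 of its genes were highest on GelMA-PSS. After the length and GC correction, Bglap was at -0.99 against TCP and -0.26 against GelMA, and Bglap2 at -0.98 and -0.34. Both thus lay below both controls. Runx2 was then at 0.06 against TCP and -0.05 against GelMA. Taken to the controls' mean, the median of the 3 tested genes moved from -0.06 to -0.63.

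The remaining marker lists were low or shared with muscle cells. Of 5 endothelial markers 0 were above the limit (summed CPM 0.797, 0.704 and 0.905, most from Tek), and of 5 macrophage markers found 2 were (2.78, 2.51 and 1.99, most from Cd68, with Ptprc and Adgre1 at 0 on TCP). Of 5 adipocyte markers 1 was above it, Pparg, which made most of the sums of 8.57, 6.75 and 9.61, and Lep had 0 counts. Of 5 smooth muscle markers 4 were above it, led by Acta2, which myoblasts also express, with sums of 3588, 2822 and 3076.

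Sequence upstream of the genes was read from RefSeq promoters on GRCm38.p6, which span 250 bases before to 50 after a start, and 8 of the 10 genes were matched by symbol, all but Id1 and Smad7. Searched on both strands, the Smad motif GTCT was present in 88.04% of 27025 promoters, the GC-rich motif GGCGCC of BMP-responsive Smads in 11.96%, and the E-box CANNTG, to which bHLH dimers bind, in 72.15%. The window of Id3 held 3 matches to the Smad motif and 0 to the other motifs, and that of Bmpr2 held 1 match to the GC-rich motif only. Both of those windows lie entirely in exons that GENCODE annotates for the same genes. Id2 held 1 match to each motif, and the GC-rich motif was also found in Id4, Bmpr1a and Grem1 and was not found in Smad6 or Bmp4. The GC content of the 8 windows ran from 59.3% (Bmpr2) to 79.3% (Bmpr1a), all above the median of 52.7% over all promoters. The background shares are not matched for GC content, so they are no yardstick for the GC-rich motif in these windows. A match describes the letters of the window and no binding was measured.

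For Id2, Bmp4 and Grem1, a target, a ligand and an antagonist whose values are given above, the part of the window outside the annotated exons of the gene is printed 5' to 3' on the minus strand of GRCm38.p6, with capitals for the Smad motif on either strand and for the GC-rich motif. The Id2 stretch, chr12:25096254-25096342, has 89 bases within the annotated span of the gene, and holds 1 GC-rich motif. The Bmp4 stretch, chr14:46390670-46390919, has 250 bases before the annotated gene with 1 Smad motif, and the Grem1 stretch, chr2:113758647-113758898, has 252 bases before the gene with 4 Smad motifs and 1 GC-rich motif.
Id2: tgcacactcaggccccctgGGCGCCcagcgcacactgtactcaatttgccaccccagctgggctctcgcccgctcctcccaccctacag
Bmp4: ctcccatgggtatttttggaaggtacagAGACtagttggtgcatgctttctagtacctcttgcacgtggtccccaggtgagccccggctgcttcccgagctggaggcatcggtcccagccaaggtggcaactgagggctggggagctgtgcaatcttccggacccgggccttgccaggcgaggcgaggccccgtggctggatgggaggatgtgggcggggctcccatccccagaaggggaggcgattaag
Grem1: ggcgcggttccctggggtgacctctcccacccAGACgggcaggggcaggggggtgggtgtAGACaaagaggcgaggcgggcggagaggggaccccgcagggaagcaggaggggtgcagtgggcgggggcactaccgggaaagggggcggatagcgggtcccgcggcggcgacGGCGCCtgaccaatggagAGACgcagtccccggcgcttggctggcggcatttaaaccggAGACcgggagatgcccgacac

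In the GENCODE annotation (GRCm38), Id3 lies on the plus strand at chr4:136143497-136145755, Id1 at chr2:152736251-152737410 on the plus strand and Id2 at chr12:25093799-25097140 on the minus strand. Bmpr2 is at chr1:59763400-59879014 (plus), Bmpr1a at chr14:34410734-34503341 and Bmp4 at chr14:46383520-46390669 (both minus), Smad6 at chr9:63953076-64022059 (minus) and Grem1 at chr2:113746164-113758646 (minus). Id1 and Grem1 thus share chromosome 2, and Bmp4 and Bmpr1a share chromosome 14, in each case at a distance of megabases.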

How the data were processed

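RNA-seq of C2C12 cells on TCP, GelMA and GelMA-PSS was analysed, with 1 library per substrate assigned from the sample labels. Raw counts for each gene symbol were deposited by the authors, made from paired-end, strand-specific sequencing at 101 bp. The submitters' processing notes name TopHat and edgeR and the builds hg19 and mm10, without roles. The counting tool, annotation and use of strand are not given in the sources used here. The labels name a SMARTER kit, whereas the study's methods name a TruSeq kit. More lines held a count of 2 than of 1 in each library (543 against 426 on TCP, 866 against 651 on GelMA, 480 against 441 on GelMA-PSS), and counting intervals are too narrow if mates were counted separately, which could not be settled.

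Of 23282 lines, those sharing a symbol (35 symbols, none among the 10 genes) were summed. TMM factors (edgeR 4.0.16 in R 4.3.3) were 1.02, 1.04 and 0.943. The methods' FPKM values were not used here and CPM took their place. The 2-fold threshold is that of the study's methods, which paired it with a p-value limit that was not applied here. The study's results section names 1.5-fold instead. Intervals at 95% are exact Poisson for CPM and exact conditional binomial (Clopper-Pearson) for ratios (scipy 1.17.1). Length and GC content came from the GENCODE vM21 transcript (GRCm38, the same assembly as mm10) with the longest coding sequence, matched by symbol for 22197 genes and by synonym for 650, with 391 unmatched. Loess fits had a span of 0.3 (statsmodels 0.14.6), and 13054 tested genes had a length. Other tools were Python 3.11.15, numpy 2.4.6, pandas 2.3.3, matplotlib 3.10.9 and DESeq2 1.42.0 for size factors. The 2-fold rule and the loess correction were tested on simulated counts with counting error only, scaled by library totals. TMM factors and intervals were not part of that test.

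The 10 genes and the lists were chosen with earlier results of these data known. Named from each list were genes past 2-fold against both controls or, where there were none, up to 3 tested genes furthest from the mean of the controls. Named as neighbors were the 5 genes nearest the Id gene of highest mean CPM. Acvrl1, Bmp3, Bmpr1b, Eng, Myog, Nbl1, Tob1, and genes named where alternatives differ, were named beyond this rule, after their values were seen. Alternatives covered scaling, pseudocount, filter, threshold, control, repeated symbols and the length correction. The shift of levels per kilobase on GelMA-PSS by the length and GC correction was added after the data were seen.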

Additional observations from a re-analysis of the deposited data

How the results depend on the processing

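Alternatives changed scaling, pseudocount, filter, threshold, control, treatment of repeated symbols or length dependence, 1 at a time except for TPM, which divides by length, drops the TMM factors and leaves 12742 genes tested, and for the correction, which takes length and GC content together. Of the 10 genes, 2 passed 2-fold against both controls (Id3 and Bmpr2), and the number was also 2 with library totals alone, median-of-ratios size factors, no filter, a CPM limit of 5, GelMA as the control, or the highest line of a repeated symbol. With TPM the 2 genes were Smad7 and Bmpr2. Against TCP, 3 genes passed, or 4 with library totals alone, TPM or a pseudocount of 0.1, where Smad7 joined. Against GelMA 2 passed, or 3 with TPM, where Id3 was lost and Smad7 and Grem1 joined Bmpr2. A pseudocount of 5 left 1 gene, Id3, against both controls, 1 against TCP and 0 between GelMA and TCP. The length and GC correction left 0 against both controls, 2 against TCP and 0 against GelMA. The 1.5-fold threshold gave 4 genes, and TCP as the control gave 3. Of the 38 other pathway genes, 0 passed 2-fold, against 3 with TPM (Fst, Ski and Tcf4, all lower), 1 with a pseudocount of 0.1 (Bmpr1b, lower), 7 at 1.5-fold (Hey1 and Myf5 higher, and Gdf5, Bmpr1b, Fst, Ski and Tcf4 lower) and 5 with TCP alone (Myf5 higher, and Gdf5, Chrd, Chrdl1 and Fst lower). The cause of these differences was not tested. An alternative chosen after seeing the data shifted the CPM per kilobase on GelMA-PSS by the length and GC correction, which moved 8 of the 9 tested genes out of their counting intervals (all but Smad6) and put Bmpr1a above Id1 and Id2.

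Across all genes, 180 were called higher and 153 lower, against 97 and 261 with library totals alone, 30 and 623 with TPM, 259 and 294 with a pseudocount of 0.1, 106 and 77 with a pseudocount of 5, 59 and 71 after the correction, 1064 and 946 at 1.5-fold, 490 and 412 against TCP alone and 233 and 307 against GelMA alone. Over 6 alternatives of scaling, pseudocount and correction, the 9 genes kept the sign of their log2 ratio against TCP in 6 of 6, and against GelMA in 6 of 6 except for Bmp4 (3 of 6). Between GelMA and TCP, Smad6 kept it in 4 of 6 and Bmpr1a and Bmpr2 in 5 of 6. Depth limited Id4, with 8 to 13 counts, and Smad6, whose ratios lay within counting error. With 1 library per substrate, variation between cultures is not measured, a difference of substrate cannot be told apart from a difference of library, and no paired analysis was possible because each group has 1 sample.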
